A study of Mus musculus with 4 samples.

Results

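TFIIB binding in the mouse heart was described along the bodies of 6 long genes: Tcf4, Zmiz1, Camta1, Frmd4a, Rad51l1 (now Rad51b) and 2010111I01Rik (now Aopep). These 6 of 14469 genes were chosen from the same tables for their length and for the number of TFIIB regions inside them, so both properties are given as a description and not as a result. TFIIB was mapped by chromatin immunoprecipitation and sequencing with an antibody to GTF2B in whole hearts of C57BL/6 mice. The ChIP libraries came from the hypertrophied heart of 12-week-old male mice 4 days after transaortic coarctation (TAC), a narrowing of the aorta that raises the pressure load on the left ventricle, from the neonatal heart at 1 to 2 days of age, and from the normal adult heart at 12 weeks. There was 1 library in each group and 1 library of input DNA, with no replicate, and the labels do not say whether hearts were pooled. The values are those given over all 3 ChIP libraries together, because the columns of single libraries carry codes that match no sample label. TAC, neonatal and adult hearts were therefore not compared, and no value has a replicate error. Read depth per library is unknown from these tables.

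TFIIB is a general transcription factor that binds next to TATA-binding protein at core promoters and helps place RNA polymerase II at the start of transcription. In a long gene, TFIIB far inside the body can lie at an alternative promoter, at the promoter of a nested gene, or at an enhancer, where general factors and polymerase are also found. A whole heart holds cardiomyocytes, fibroblasts, endothelial cells, blood cells and others, and the tables do not separate them. Of the marker genes listed for the tissue, 5 of 5 of cardiomyocytes, 3 of 3 of fibroblasts, 3 of 3 of endothelial cells and 3 of 3 of leukocytes had an assigned TFIIB region. The share of all annotated genes with such a region was not determined, so these counts give no result on cell types. The liver genes Alb and Apoa1 had none (0 of 2), and of the brain genes 1 of 2 was listed, Gfap, whose region was not at its start. A start-site region was likewise absent at the cardiomyocyte marker Myh6 and the fibroblast marker Dcn, although Myh6 had 24 assigned regions and Dcn 1. The highest signal deposited for Gfap was 41, against 14 (Ptprc) to 207 (Actc1) over the tissue markers.

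The 6 genes encode proteins of different kinds. Tcf4 is an E protein, a basic helix-loop-helix factor that pairs with tissue-specific partners. Zmiz1 is a transcriptional coactivator related to the PIAS family of SUMO ligases. Camta1 is a calmodulin-binding transcription activator, whose relative Camta2 is known in mice as an activator of cardiac growth genes. Frmd4a is a FERM-domain scaffold of epithelial polarity that links the Par complex to cytohesins. Rad51l1 takes part in the repair of DNA breaks by homologous recombination. The product of 2010111I01Rik, aminopeptidase O, is a zinc metalloprotease of the M1 family. In the RefSeq annotation of assembly GRCm38.p6 its gene also holds the hairpins of Mir23b, Mir27b and Mir24-1 on the same strand; none of these microRNA genes is listed in the gene table of TFIIB.

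The promoters of 4 of the genes are shown because TFIIB acts at the start of transcription. Of these genes, 3 had a TFIIB region at the start listed in the gene table, and 2010111I01Rik had none at that listed start. The sequences are RefSeq windows of assembly GRCm38.p6 from 250 bases before to 50 bases after an annotated start, 5′ to 3′ on the strand of the gene, with CG dinucleotides in capitals. The tables of regions use build mm9, so the windows were matched by gene ID and were not placed on the regions by coordinate. Whether the start of a window is the listed start of its gene was not determined. The window of Zmiz1 lies at chr14:25458935-25459234 on the plus strand, that of Camta1 at chr4:151861719-151862018 on the minus strand, that of Rad51l1 at chr12:79297032-79297331 on the plus strand and that of 2010111I01Rik at chr13:62964643-62964942 on the plus strand.
Zmiz1: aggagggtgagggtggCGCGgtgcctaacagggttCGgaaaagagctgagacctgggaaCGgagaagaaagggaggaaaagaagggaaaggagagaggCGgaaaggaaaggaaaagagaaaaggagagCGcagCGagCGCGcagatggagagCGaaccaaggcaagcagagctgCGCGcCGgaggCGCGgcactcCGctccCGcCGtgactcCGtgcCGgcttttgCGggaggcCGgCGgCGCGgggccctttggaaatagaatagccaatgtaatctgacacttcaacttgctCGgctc
Camta1: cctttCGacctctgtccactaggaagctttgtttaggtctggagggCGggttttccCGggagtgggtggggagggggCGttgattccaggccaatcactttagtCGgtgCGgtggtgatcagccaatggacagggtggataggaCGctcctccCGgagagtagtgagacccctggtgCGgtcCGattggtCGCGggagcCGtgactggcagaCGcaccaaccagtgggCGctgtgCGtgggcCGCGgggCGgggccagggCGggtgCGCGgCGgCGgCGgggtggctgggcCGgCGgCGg
Rad51l1: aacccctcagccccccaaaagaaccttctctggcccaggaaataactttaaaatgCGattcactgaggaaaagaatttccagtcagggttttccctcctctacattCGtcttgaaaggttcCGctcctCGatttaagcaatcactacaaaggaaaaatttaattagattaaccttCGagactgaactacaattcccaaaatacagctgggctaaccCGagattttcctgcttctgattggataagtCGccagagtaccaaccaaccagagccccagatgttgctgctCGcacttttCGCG
2010111I01Rik: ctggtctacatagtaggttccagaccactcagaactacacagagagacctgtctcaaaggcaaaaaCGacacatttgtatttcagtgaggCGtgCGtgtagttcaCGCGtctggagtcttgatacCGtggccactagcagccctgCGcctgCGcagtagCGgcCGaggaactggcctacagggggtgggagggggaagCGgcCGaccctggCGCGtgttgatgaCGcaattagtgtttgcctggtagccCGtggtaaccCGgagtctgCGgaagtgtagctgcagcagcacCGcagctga

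The window of Camta1 held 28 CG dinucleotides, that of Zmiz1 26, that of 2010111I01Rik 19 and that of Rad51l1 10, against a median of 7 and an interquartile range of 3 to 20 over all 32851 windows. Rad51l1 has a further window that overlaps the one shown and also holds 10. Frmd4a has 4 windows at separate annotated starts, with 2, 8, 12 and 15 CG dinucleotides. The TATA box, searched as TATAAA on both strands, occurred in none of the windows shown and in 1 of the 4 of Frmd4a, against 13.6% of all windows. The upstream TFIIB recognition element was searched on both strands as CGCC preceded by A or G, with 2 letters that are each C or G before that. It was found 4 times in the window of Zmiz1 and 1 time in that of 2010111I01Rik, and not in those of Camta1 and Rad51l1; 30.2% of all windows hold it. A match is a description of the letters and not evidence of a bound site. No promoter sequence is shown for Tcf4.

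TFIIB lay at the listed start of Tcf4, Zmiz1, Camta1 and Rad51l1, and not at that of Frmd4a or 2010111I01Rik. A region centred within 1000 bp of the listed start was thus present in 4 of the 6 genes, against 76.5% of all genes in the table and 77.6% of the other 1458 genes of at least 100 kb. At Zmiz1 (chr14:26278778-26484205, mm9, plus strand) the start-site region was 4996 bp long, built from 6 called intervals, with 2 CpG islands, and was centred 245 bp downstream of the start. At Tcf4 (chr18:69504175-69843998, plus strand) it was 3096 bp long with 3 intervals and 2 CpG islands, centred 696 bp downstream. At Camta1 (chr4:150433635-151235855, minus strand) it was 2973 bp long with 3 intervals and 1 CpG island, centred 54.5 bp upstream of the start. All 3 were longer than 1837 bp, the upper quartile of the 9967 start-site regions of the table, whose median was 1418 bp.

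Rad51l1 (chr12:80398269-80915677, plus strand) differed from these in that its start-site region held no CpG island. That region, of 1666 bp and 3 intervals at chr12:80396795-80398461, was centred 641 bp upstream of the start of Rad51l1. It was also 359 bp upstream of the start of Zfyve26, a gene of the opposite strand whose start lies 1000 bp away. The region covered both starts of this divergent pair. The start-site region of Camta1 likewise covered both starts of a divergent pair. Its partner there was LOC100041960, on the opposite strand with its start 287 bp away. Frmd4a (chr2:4073918-4534988, plus strand) had its nearest region 7.07 kb downstream of the listed start, and 2010111I01Rik (chr13:63116294-63400964, plus strand) 93.6 kb downstream. Among the other genes of at least 100 kb, 255 (17.5%) likewise lacked any region with its centre in the 5000 bp on either side of the start. The 4 RefSeq windows of Frmd4a show that more than the listed start is annotated for this gene. In GRCm38.p6 they begin at chr2:4017433, 4152613, 4400726 and 4559504. Whether inner regions of Frmd4a lie at any of these annotated starts was not tested.

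**Figure D1:**
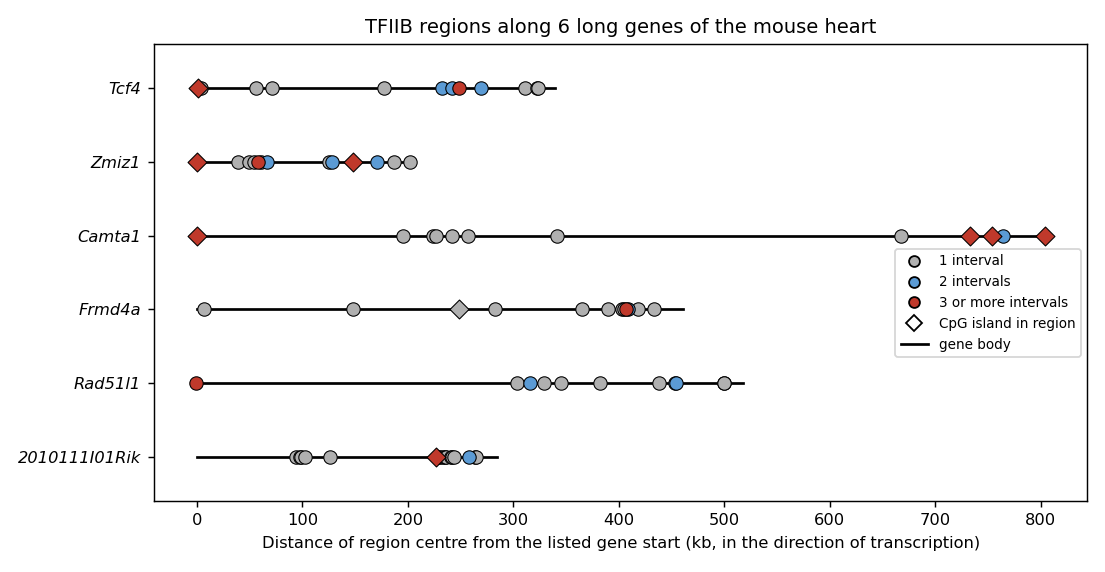
TFIIB regions along the 6 genes. The x axis is the distance of each region's centre from the listed gene start in kb, lines are gene bodies, colours give the number of called intervals and diamonds mark a CpG island. Frmd4a and 2010111I01Rik carry no region at 0 kb, and the inner regions of Rad51l1 all lie beyond 303 kb.

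Inside the genes, 71 regions of TFIIB were centred in the body more than 5000 bp from the start (inner regions), out of 77 regions assigned to the 6 genes. The count was 17 in 2010111I01Rik, 12 each in Zmiz1 and Frmd4a, and 10 each in Tcf4, Camta1 and Rad51l1. The genes measured 285, 205, 461, 340, 802 and 517 kb in that order. Over the other 1458 genes of at least 100 kb the median was 1 inner region, the upper quartile 2, and 721 genes (49.5%) had none. Inner regions numbering 10 or more were found in 0.615% of all 1464 genes of at least 100 kb. The members were chosen on this count, so nothing follows from its size.

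The genes just outside the choice were as rich in inner regions. Tns1, encoding the focal adhesion protein tensin, had 21 in 214 kb, more than any of the 6. Col4a2, encoding a basement membrane collagen chain, had 10 in 136 kb. Among the next were 7 genes with 9 each, which were 3110082I17Rik, Rgs3, Zbtb16, Tacc2, Sh3pxd2a, Prkag2 and 2610528E23Rik. Genes closest to a member in log2 length and log2 of inner regions plus 1 were 2610528E23Rik for Tcf4 (distance 0.21), Kalrn for Rad51l1 (0.46), Rora for Camta1 (0.48), Tns1 for 2010111I01Rik (0.50) and Cdh23 for Frmd4a (0.58). Of these, Cdh23 and Kalrn had no start-site region.

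**Figure D2:**
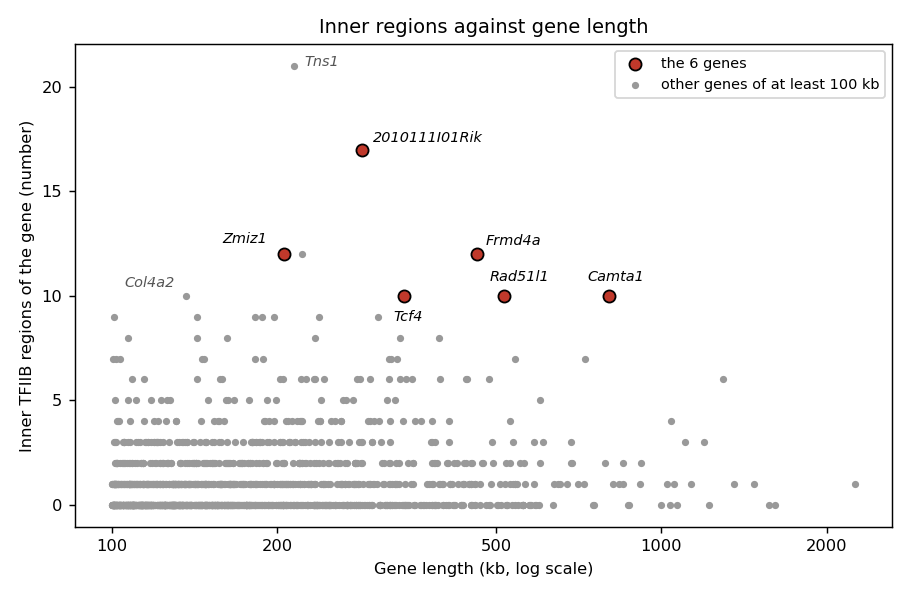
Number of inner TFIIB regions against gene length for 1464 genes of at least 100 kb. Each point is a gene, the x axis is in kb on a log scale, and the 6 genes are in red. The 6 genes have 10 to 17 inner regions; Tns1 lies above them with 21, and Col4a2 to their left with 10.

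Per length, 2010111I01Rik and Zmiz1 were the densest of the 6 genes. The density was 5.97 inner regions per 100 kb in 2010111I01Rik and 5.84 in Zmiz1. It was 2.94 in Tcf4, 2.60 in Frmd4a, 1.93 in Rad51l1 and 1.25 in Camta1, the longest of the 6. The median of the 6 genes was 2.77 per 100 kb, against 0.118 over the other genes of at least 100 kb, whose 95th percentile was 2.56. The 6 genes were chosen on the number of inner regions, so nothing follows from this difference. Inner regions covered 8.10% of 2010111I01Rik, 7.08% of Zmiz1, 3.64% of Tcf4, 2.41% of Frmd4a, 1.79% of Rad51l1 and 1.08% of Camta1. Length itself went little with the number of inner regions: across the 1464 genes of at least 100 kb, Spearman's rho was 0.17, given as a description across genes.

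The inner regions were not spread evenly along the genes. In Rad51l1 all 10 lay between 303 and 499.9 kb from the start, and in Frmd4a 10 of 12 lay beyond the midpoint, of which 8 were between 365 and 434 kb. In 2010111I01Rik 12 of 17 were beyond the midpoint, and in Tcf4 8 of 10. Zmiz1 had 6 on each side of its midpoint, and Camta1 had 4 of 10 beyond it. Over the 6 genes together 50 of 71 inner regions (70.4%, exact 95% interval 58.4 to 80.7%) lay on the 3′ side of the midpoint, against 53.3% of the inner regions of all genes. The interval covers counting only, and regions of a gene are not independent of each other. By gene, the median position was past the midpoint in 4 of the 6, and in 42 of 73 other genes of at least 100 kb with 5 or more inner regions (57.5%). No test of this difference was made.

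In 2010111I01Rik the regions formed a dense run near the 3′ end. There, 9 of them followed each other at gaps of at most 5 kb over 19.1 kb at chr13:63341160-63360253, with centres at 79.6 to 85.5% of the gene's length. The first of the 9, at chr13:63341160-63344757, was 3597 bp long with 3 intervals and a CpG island, and the other 8 had 1 interval each and no island. The next region began 86 bp after it. A separate group of 4 lay 93.6 to 102.8 kb from the start, followed by a region at 125.7 kb, and 98.2 kb without a region lay between that and the run. By number of regions this was the longest run of any gene of at least 100 kb (9, against at most 7 in another gene), while runs of fewer regions in Hspg2 and Zbtb16 spanned more, 28.7 and 22.4 kb. Genes shorter than 100 kb were not searched for runs, and among them Myh6 had 15 inner regions in a gene of 24.6 kb. The rule of a 5 kb gap was set after the positions were seen.

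Closely spaced regions make the count depend on how they are joined. When inner regions of a gene at most 1000 bp apart were counted as 1, 2010111I01Rik had 8, Zmiz1 12, Camta1 10, Frmd4a 9, Tcf4 9 and Rad51l1 8. When those at most 5000 bp apart were joined, the counts were 4 for 2010111I01Rik, 7 for Zmiz1, 9 each for Camta1 and Frmd4a and 8 each for Tcf4 and Rad51l1. The rank of 2010111I01Rik among genes of at least 100 kb was then 47, while Camta1 and Frmd4a stood second, behind Tns1 with 12.

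Frmd4a and Zmiz1 held shorter runs of the same kind. In Frmd4a 4 regions lay within 6.78 kb at chr2:4475934-4482711, among them the region at 4479624 to 4482006, of 2382 bp and 3 intervals, the only inner region of this gene with 3. In Zmiz1 5 regions lay within 17.8 kb at chr14:26328037-26345836, 49.6 to 66.1 kb from the start. The longest was of 2347 bp and 3 intervals. Camta1 had the widest spacing, with no region over 324.7 kb between those at 341.5 and 666.9 kb from the start. The median gap between neighbouring inner regions was 0.34 kb in 2010111I01Rik, 10.5 kb in Zmiz1, 13.7 kb in Rad51l1, 14.1 kb in Tcf4, 15.0 kb in Frmd4a and 19.3 kb in Camta1. The median of that gap over 374 other genes of at least 100 kb with 2 or more inner regions was 25.2 kb.

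Most inner regions were called in 1 library. Each called interval is named for 1 library in the gene table, and a region with 1 interval was therefore seen in 1 of the 3 ChIP libraries. A region with several intervals need not have been seen in several libraries, since 1 library can contribute more than 1 interval. Regions of 1 interval were 52 of the 71 inner regions (73.2%, exact 95% interval 61.4 to 83.1%), against 70.3% of inner regions of all genes. This 95% interval covers counting only, regions of a gene are not independent of each other, and no test was made. By gene, regions of 1 interval were 15 of 17 in 2010111I01Rik, 10 of 12 in Frmd4a, 7 of 10 in Camta1 and in Rad51l1, 7 of 12 in Zmiz1 and 6 of 10 in Tcf4. With 1 library in each group, and codes that match no label, group and library cannot be told apart for these regions.

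The 7 inner regions with 3 or more intervals were found in 5 genes. Those with the most intervals were that of Tcf4 at chr18:69751218-69753451, 248 kb from the start, and that of Zmiz1 at chr14:26425913-26428399, 148 kb from the start, each with 4 intervals and over 2.2 kb long. With 4 intervals and 3 libraries, at least 1 library contributed more than 1 interval to each. In Tcf4 this region stood among others of 2 intervals at 232.0, 242.0 and 269.4 kb, so that the 4 inner regions of more than 1 interval were neighbours in the gene. In Camta1 the regions of 3 intervals lay at 733.0 and 753.5 kb, followed by 1 of 2 intervals at 764.5 kb, while the 7 others had 1 each. Rad51l1 had no inner region above 2 intervals.

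**Figure D3:**
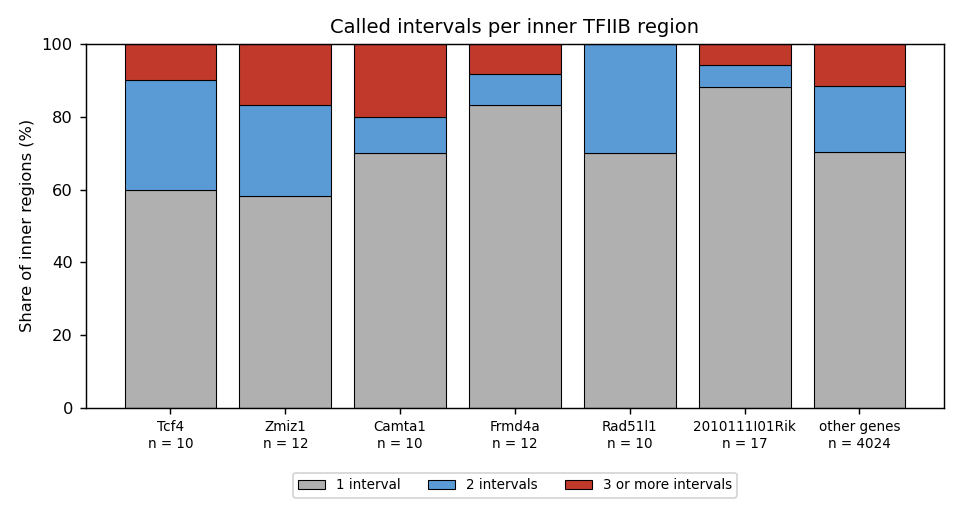
Share of inner TFIIB regions with 1, 2 or 3 and more called intervals, in percent, for each of the 6 genes and for 4024 inner regions of all other genes. The share with 1 interval runs up to 15 of 17 regions in 2010111I01Rik, and Tcf4 and Zmiz1 have the largest shares with several intervals.

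Inner regions of the 6 genes seldom held a CpG island, as was so for other genes. An island lay in 5 of the 71 inner regions (7.04%, exact 95% interval 2.33 to 15.7%). The share was 13.3% in inner regions of all genes and 9.56% in those of the other genes of at least 100 kb. The 95% interval covers counting only, regions of a gene are not independent of each other, and no test was made. The 5 were 2 in Camta1, at 733.0 and 753.5 kb from the start, and 1 each in Zmiz1 at 148.4 kb, Frmd4a at 248.4 kb and 2010111I01Rik at 226.7 kb. Of these 5 island regions, 4 had 3 or more intervals, and the exception was that of Frmd4a with 1. Tcf4 and Rad51l1 had no inner region with an island. Inner regions of the 6 genes had a median length of 910 bp, with 1298 bp for those of several intervals and 766 bp for those of 1.

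Other genes were named by few of these regions. Only 2 of the 71 inner regions (2.82%) were shared with another gene, both in Zmiz1 and both named for 4931406H21Rik, which lies inside it on the same strand. One of the pair, at chr14:26406422-26407808, was centred 825 bp downstream of the start of 4931406H21Rik, and the other 2653.5 bp upstream of it. That gene carried a peak value of 16, so neither region exceeded 16 in any library. The region of Camta1 at chr4:150431273-150432681 lay beyond its 3′ end, 85 bp inside the start of Vamp3, a vesicle fusion protein gene. The other 69 inner regions named no gene but the member. Exons and introns were not assigned, since no annotation of build mm9 was used.

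The height of TFIIB signal differed among the genes. For each gene the authors deposited a peak value, the maximum over its regions and the 3 ChIP libraries, on an unstated scale. It was 80 for 2010111I01Rik, 78 for Tcf4, 67 for Zmiz1, 55 for Frmd4a, 36 for Camta1 and 32 for Rad51l1, with a median of 61. The median over all genes was 34 and that over the other genes of at least 100 kb was 29. Thus 4 of the 6 genes lay at the 83.6th percentile of genes or higher, Camta1 lay at the 54.1st and Rad51l1 at the 44.0th. A gene with many regions has more values to take its maximum from, and the part of that in these values was not tested.

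Where that height lay could be read for 5 of the 6 genes. A neighbour with no other region carries the value of the region that it shares. In 1264 of 1264 cases in which a region was the only region of several genes these agreed. The start-site region of Zmiz1 is the only region of I920194n01, a separate entry in the gene table whose name RefSeq now gives as a synonym of Zmiz1, listed at 67. That of Rad51l1 is the only region of Zfyve26, listed at 32, and that of Camta1 the only region of LOC100041960, listed at 36. In these 3 genes the peak value of the gene was therefore that of its start-site region, and no inner region exceeded it. In Frmd4a and 2010111I01Rik, which have inner regions only, the values of 55 and 80 belong to inner regions. For Tcf4 none of its 12 regions is shared with another gene, and the region behind 78 was not identified.

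**Figure D4:**
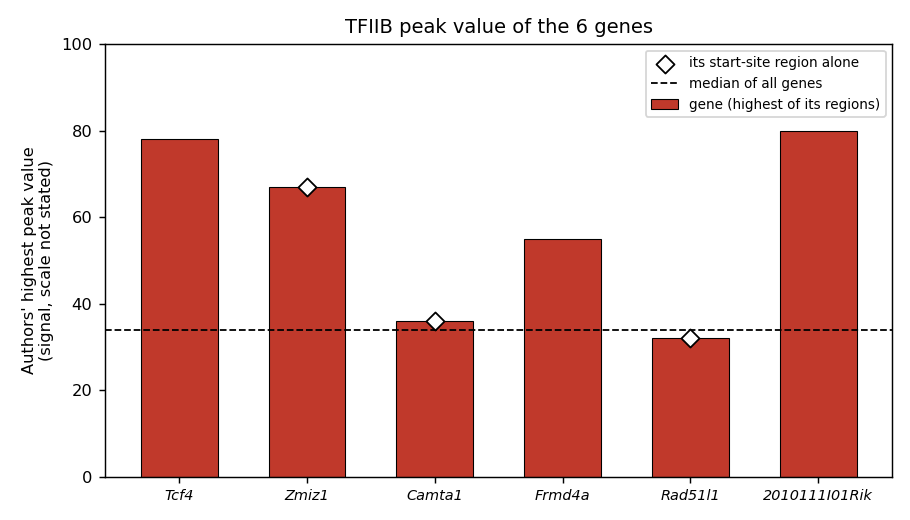
The authors' highest peak value for each of the 6 genes (bars), on a scale not stated, with the value of the start-site region alone where a neighbouring gene gives it (diamonds) and the median of all genes, 34 (dashed line). The diamonds of Zmiz1, Camta1 and Rad51l1 sit at the top of their bars, at 67, 36 and 32.

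Relatives and partners of the 6 genes, 38 in all, were listed by function, and 34 of them were in the gene table. A start-site region was found at 30 of the 34 (88.2%), against 76.5% of all genes in the table. Any inner region was found in 8 of the 34 (23.5%), against 16.4% of all genes, and no test of either difference was made. Of the E proteins, Tcf12 had 1 inner region in 266 kb and Tcf3 (listed as Tcfe2a) none, and the peak values were 26 and 57. All 4 Id genes, which encode inhibitors of E proteins, had a start-site region, with values of 178, 131, 281 and 69 for Id1, Id2, Id3 and Id4. Among the PIAS relatives of Zmiz1, Zmiz2 had a peak value of 142 and 1 inner region in 16.8 kb. Camta2 had a start-site region and none inside its 18.5 kb, with a peak value of 57.

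The FERM family came nearest to its member. Frmd4b, the paralog of Frmd4a, measured 331 kb and had 7 inner regions with no start-site region, as Frmd4a had none, and a peak value of 26. Frmd5 had 3 inner regions in 262 kb and also no start-site region, and Frmd6 had a start-site region with a value of 119 and nothing inside. The partners of Frmd4a in polarity, Pard3, Pard6b, Cyth1 and Cyth3, had 1, 1, 2 and 3 inner regions. No M1 aminopeptidase of 9 had an inner region; 7 of this family were in the table, 6 of them with a start-site region. Anpep, an aminopeptidase of cell surfaces, was listed without a start-site region. Only 5 of the 34 listed relatives measured at least 100 kb (Tcf12, Pias1, Frmd4b, Frmd5 and Pard3), while the shortest member, Zmiz1, measured 205 kb.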

How the data were processed

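TFIIB ChIP-seq was made from whole hearts, with library construction and Illumina sequencing by a service company per the labels' protocols, and the submitters' processing notes name build mm9. Which aligner, interval caller, thresholds and scaling were used, and how the input entered, is not given in the sources used here. Per the file headers, the deposited tables give merged regions with their intervals, CpG islands and genes, and for each gene a peak value. This value is a signal deposited by the authors as a whole number, without a stated normalization, the maximum of all libraries over the regions of the gene. The 15 columns of per-library values were not used, since their codes match no sample label; the planned comparison of TAC, neonatal and adult hearts was therefore not run.

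Distances were computed from region centres and matched the listed ones within 1 bp in 99.99% of pairs. A region was inner when centred inside the gene and more than 5000 bp from its start, and at the start when centred within 1000 bp. Sharing of regions, runs and joined blocks were computed with Python 3.11.15, pandas 2.3.3 and scipy 1.17.1, and the functions were tested on simulated data. Shares have exact (Clopper-Pearson) 95% intervals. The members and lists were chosen with earlier results of these data known. The genes named were all 6 members, the 10 other long genes with the most inner regions, the most alike gene per member, and all listed relatives with inner regions or no start-site region; the Id genes, Tcf3, Camta2, Frmd6 and the microRNA genes were added after their values were seen. Some genes that meet this rule are not reported here. RefSeq tables of GRCm38.p6 matched all 6 members by ID.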

Additional observations from a re-analysis of the deposited data

How the results depend on the processing

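The count of inner regions over the 6 genes was 71. It was 72 from 1000 bp and 70 from 10000 bp onward, and 69 without regions shared with another gene. It fell to 19 when only regions of 2 or more intervals were kept, by construction of that stricter rule. Joining neighbours within 1000 bp gave 56 and within 5000 bp gave 45; both were chosen after the data were seen. Start-site regions were found in 4 genes, also within 5000 bp or when a region had to cover the start, and in 2 within 500 bp, where those of Tcf4 and Rad51l1 are centred 696 and 641 bp away. The run in 2010111I01Rik had 6 regions with gaps of at most 2000 bp and 9 with up to 10000 bp. With inner regions counted from 1000 or 10000 bp, the share with a CpG island stayed within 6.94 to 7.14% and that of 1 interval within 72.9 to 73.6%. The median density was 2.81 per 100 kb when the first 5000 bp of each gene were left out, and the median rank of the 6 genes in inner regions was 5.5 among all genes and 4.5 among those of at least 100 or 200 kb. The rank of 2010111I01Rik alone, 2 among all genes, was 10 among genes of at least 100 kb after joining within 1000 bp and 47 within 5000 bp. No paired analysis was possible because each group has 1 library and no library column carries a label. With no read depth in the tables, a missing region says only that none was called.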

Other observations

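Runs of closely spaced TFIIB regions were also found in other genes of at least 100 kb. With gaps of at most 5 kb, Hspg2, encoding the basement membrane proteoglycan perlecan, had 7 inner regions in a row over 28.7 kb, and Zbtb16, encoding a zinc finger repressor, had 6 over 22.4 kb. Tns1, although it had the most inner regions of these genes, had a longest run of 4. Only 7 of the 21 inner regions of Tns1 had 1 interval, and 3 held a CpG island. These values are a description and were chosen after the tables were seen.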
